A study of Mus musculus with 2 samples.

Results

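The distal miRNA cluster of the imprinted Dlk1-Dio3 region on mouse chromosome 12 was examined in gastrocnemius, the large muscle of the calf. The members were the 38 miRNA genes named for this block that lay between 109682197 and 109747960 on mm10, from Mir379 to Mir410, out of 2202 miRNA gene rows. All 38 were found in the count files. They were chosen by name and position and not by a filter on their counts, though with earlier results of these data known. The group consisted of 2 libraries from B6CASTF1/J males aged 25 days, with no treatment and no other group in the labels. B6CASTF1/J mice are the first-generation cross of a laboratory strain with CAST, a strain derived from wild mice. Replicates 1 and 2 are named as separate males, yet their donor identifier is the same, and whether they came from 1 animal is not known. Differences between these libraries may therefore be technical, and the p-values of the main test set them against counting error only. The libraries, with a labelled size range below 30, held 1491341 (replicate 1) and 2028332 (replicate 2) counts on miRNA genes.

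A miRNA gene is transcribed as a long primary RNA, from which a hairpin is cut, and the hairpin yields mature RNAs of about the same length from its 5p and 3p arms. The mature RNA guides a silencing complex to messenger RNAs, mainly through its seed, bases 2 to 8 from the 5′ end. In the Dlk1-Dio3 region the protein-coding genes are expressed from the paternal chromosome and the noncoding RNAs, including Meg3, Rian, Mirg and the miRNAs, from the maternal one. In the naming of F1 mice the maternal strain comes first, so the maternal chromosome would here be that of the laboratory strain. The parental origin of reads was not analysed here. The cluster is known for high expression in brain, embryo and placenta, and it is active in muscle stem cells and declines as muscle matures.

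Mature sequences of the 5 most abundant members are shown first, since most of the counts in the block came from these hairpins. They are from RefSeq on GRCm38.p6, the build also called mm10, 5′ to 3′ on the plus strand, with the seed in capitals. The files count reads per gene, so the 5p and 3p arms of a hairpin cannot be told apart.
miR-411-5p: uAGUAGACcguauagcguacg
miR-411-3p: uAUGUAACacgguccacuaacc
miR-379-5p: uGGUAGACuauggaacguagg
miR-379-3p: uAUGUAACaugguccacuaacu
miR-487b-5p: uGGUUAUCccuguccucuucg
miR-541-5p: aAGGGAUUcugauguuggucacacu
miR-541-3p: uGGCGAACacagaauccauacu
miR-382-5p: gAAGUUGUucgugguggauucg
miR-382-3p: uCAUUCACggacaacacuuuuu
The 3p arms of miR-379 and miR-411 carry the same seed, AUGUAAC, while their 5p seeds, GGUAGAC and AGUAGAC, are not the same. All 38 members had at least 1 mature sequence in RefSeq, 71 in all, with 64 distinct seeds and lengths from 18 to 25 bases (median 22). The arms miR-376c-3p, miR-487b-3p, miR-539-3p and miR-485-5p were not used here, so Mir487b and Mir376c are shown by their 5p arms only.

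The block held 5.26 ± 0.186% of gene counts (SD, n = 2). Gene counts leave out reads that fitted several places, which were 69.8% (replicate 1) and 71.8% (replicate 2) of the total. This percentage therefore holds only among reads assigned to a single gene, and the share with the left-out reads included was not tested. The share was 5.12% in replicate 1 (exact 95% Clopper-Pearson interval 5.09 to 5.16) and 5.39% in replicate 2 (5.36 to 5.42). Levels are given in CPM, counts scaled to a common total of gene counts. Since mature miRNAs are of nearly equal length, counts of different members were compared without a length correction, and how well each sequence is ligated and amplified was not measured. The 5 highest members held 82.1 ± 0.899% of the block's counts and the 10 highest 92.6 ± 0.160%. The same 5 genes led in both libraries.

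Mir411 (chr12:109710175-109710256) was the highest, with 26933 counts in replicate 1 and 43131 in replicate 2, or 18060 and 21264 CPM. It held 37.4 ± 2.99% of the block's counts. By mean CPM it ranked 13 of all miRNA genes, with reads that fitted several places left out for every gene. Its upstream neighbour Mir379 (chr12:109709060-109709125), the first hairpin of the cluster, had 14205 and 18040 counts, or 9525 and 8894 CPM. These hairpins are related in sequence and stood ahead of the rest in both libraries.

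Mir487b (chr12:109727333-109727414) followed with 10248 and 14600 counts, or 6872 and 7198 CPM. Mir541 (chr12:109742409-109742498), in an intron of Mirg, had 6694 and 6926 counts, or 4489 and 3415 CPM. Mir382 (chr12:109733771-109733846) had 5150 and 6335 counts, or 3453 and 3123 CPM. The CPM ranges of Mir541 and Mir382 over the libraries overlapped, whereas those of Mir411, Mir379 and Mir487b each lay clear of the next member's.

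A middle tier followed. Mir376c had 2499 and 3383 counts (1676 and 1668 CPM), the closest match between the libraries among the abundant members. Mir299a had 1981 and 3699 counts (1328 and 1824 CPM) and Mir369 1346 and 2388 (903 and 1177 CPM). Mir154, after which a family of related hairpins in this cluster is named, had 1088 and 1411 counts (730 and 696 CPM). These were the 9 members with at least 1000 counts in both libraries.

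The remaining 20 members with at least 100 counts in both libraries lay between 69.1 ± 0.853 CPM (Mir412) and 487 ± 101 CPM (Mir329). Among them are miRNAs known from neurons. Mir134, known for limiting the size of dendritic spines, had 176 and 247 counts (118 and 122 CPM). Mir329 and Mir381, which act with Mir134 in activity-dependent growth of dendrites, had 620 and 1134 counts and 588 and 1003 counts. Mir485, linked to synapse number, had 451 and 493 counts. Mir494, linked to mitochondrial biogenesis in muscle, had 415 and 588 counts (278 and 290 CPM).

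The others in this tier, named here by mean CPM from high to low, were Mir409, Mir376a, Mir539, Mir300, Mir1193, Mir380, Mir376b, Mir496a, Mir495, Mir666, Mir543, Mir377, Mir668, Mir679 and Mir412. In the order of the 32 members with at least 10 summed counts, the library ranges of 19 of 31 neighbours overlapped and those of 12 did not. The order below Mir154 is therefore mostly within the spread of the libraries. Across the 38 members, Pearson's r of log2(CPM + 1) between the libraries was 0.995, given as a description across genes that share both libraries.

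**Figure D1:**
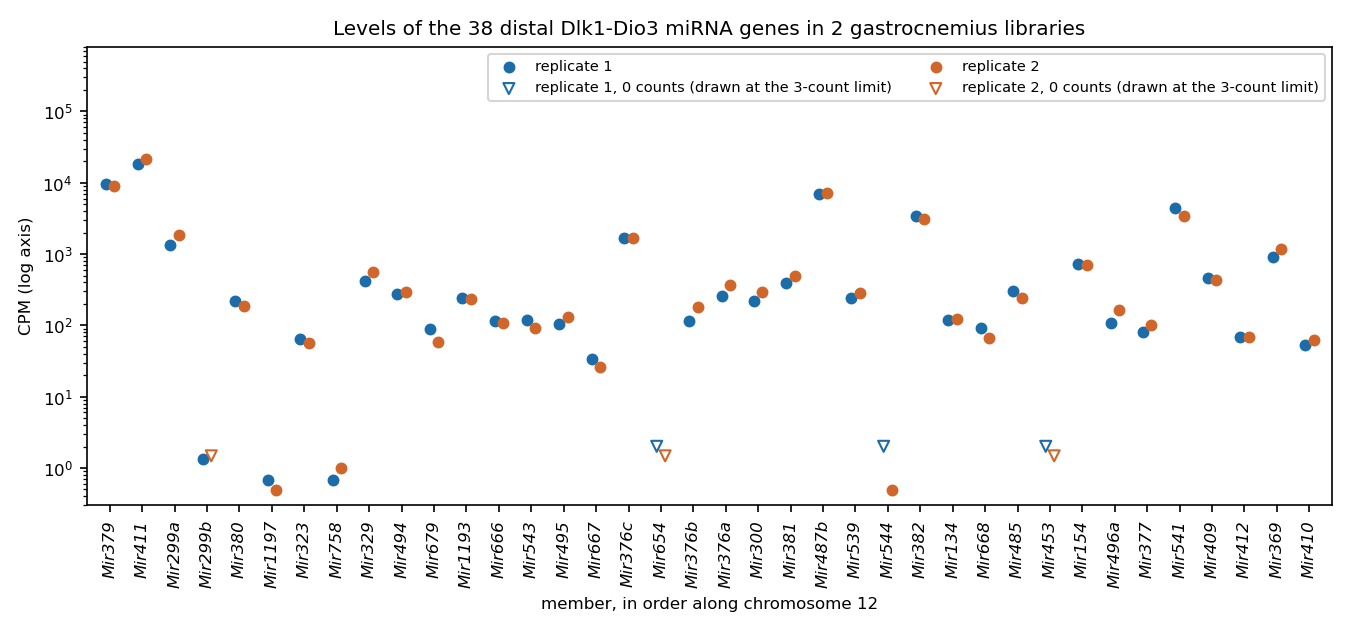
CPM of each of the 38 members on a log axis, in order along chromosome 12, with 1 point per library and open triangles at the 3-count limit where a library had 0 counts. Mir411, Mir379, Mir487b, Mir541 and Mir382 stand highest in both libraries, and Mir299b, Mir1197, Mir758, Mir654, Mir544 and Mir453 lie near or under the limit.

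Below 100 counts, Mir323 had 96 and 113, Mir410 78 and 128, and Mir667 50 and 53. The other 6 members were at or near the detection limit, and none had over 2 counts in a library. Mir1197 had 1 count in each library, Mir758 had 1 and 2, Mir299b 2 and 0, and Mir544 0 and 1. Mir654 and Mir453 had no count. A count of 0 leaves room for a level of 2.01 CPM in replicate 1 or 1.48 CPM in replicate 2, the worth of 3 counts, for counting error only. Mir758 shares a 20-base stretch with Mir411, and both mature sequences of Mir299b occur in the Mir299a hairpin. Reads that fitted more than 1 place are in no gene row, so the low counts of Mir758 and Mir299b do not show absence. Each of the 6 has members with far more counts on either side of it in the cluster. At least 10 summed counts were found for 32 of 38 members (84.2%) and for 281 of the 2164 other miRNA gene rows, given as a description.

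Mirg, the noncoding RNA whose name is used for the block, is annotated in GENCODE M21 at chr12:109729764-109749460 on the plus strand, with 12 transcripts. Only 13 of the 38 members lay within it: 4 inside an exon (Mir134, Mir485, Mir377 and Mir410), 4 across an exon boundary (Mir382, Mir668, Mir412 and Mir369) and 5 in introns (Mir453, Mir154, Mir496a, Mir541 and Mir409). The other 25, from Mir379 to Mir544, lay upstream of the annotated gene body. The upstream members held 78.8% of the block's counts in replicate 1 and 82.1% in replicate 2, and those within Mirg 21.2% and 17.9%. Median levels were 202 CPM over the upstream members and 135 CPM over those within Mirg. By this annotation most members, and most of the counts, lay outside the gene that the block is named for. Mirg itself was not measured in these libraries.

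**Figure D2:**
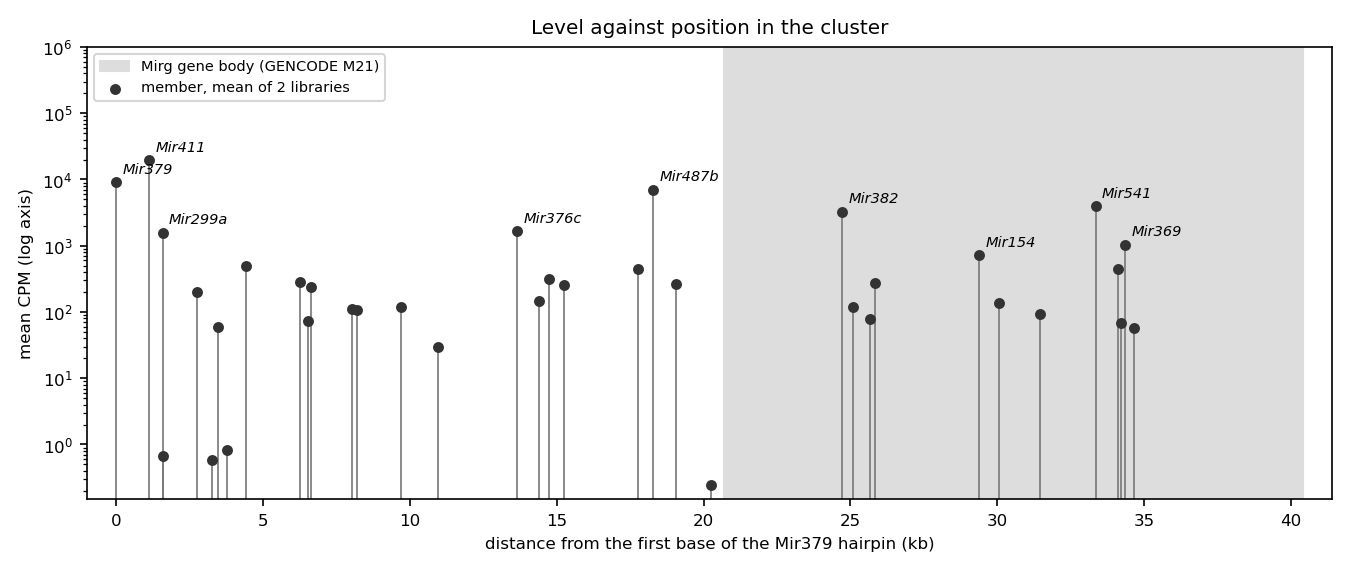
Mean CPM of each member on a log axis against the distance in kb of its hairpin from the first base of Mir379, with the annotated Mirg gene body in grey. High members occur at both ends and in the middle of the cluster, and Mir654 and Mir453, with no counts, have no point.

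Level did not follow position along the block. The members span 34.7 kb, and Spearman's rank correlation of order along the chromosome with mean log2(CPM + 1) was -0.0089 over the 38 members. This is a description across genes that share both libraries, with no test.

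Hairpins close to each other differed in count by large factors. Among the 26 pairs of neighbouring plus-strand members with at least 10 counts in each library, 17 differed by over 2-fold the same way in both libraries and 8 by over 10-fold. The median size of the log2 ratio was 1.99, against a median SD between the libraries of 0.21. The last 4 hairpins of the cluster, Mir409, Mir412, Mir369 and Mir410, show this over a short stretch, and their mature sequences are given for that reason, with seeds in capitals.
miR-409-3p: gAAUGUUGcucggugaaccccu
miR-412-5p: uGGUCGACcagcuggaaaguaau
miR-412-3p: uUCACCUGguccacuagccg
miR-369-5p: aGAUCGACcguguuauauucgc
miR-369-3p: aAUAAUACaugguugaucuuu
miR-410-3p: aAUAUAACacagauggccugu
Only 49 bases separate the hairpins of Mir412 and Mir369. Mir369 had 12.9 times the counts of Mir412 in replicate 1 and 17.2 times in replicate 2, a log2 ratio of 3.90 ± 0.29 (SD, n = 2). Mir410, 218 bases further on, was lower than Mir369 by a log2 ratio of -4.17 ± 0.08, and Mir412 was lower than Mir409, 52 bases before it, by -2.69 ± 0.06.

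Other steps lay around the abundant hairpins. Mir376c exceeded Mir667 by a log2 ratio of 5.82 ± 0.25, Mir541 exceeded Mir377 by 5.42 ± 0.50 and Mir487b exceeded Mir381 by 3.99 ± 0.18. After them the counts dropped again, with ratios of -4.74 ± 0.10 for Mir539 over Mir487b and -4.78 ± 0.13 for Mir134 over Mir382. The closest pair, Mir679 and Mir1193 with 20 bases between them, had a ratio of 1.73 ± 0.37 in favour of Mir1193. Mir543 over Mir666 and Mir495 over Mir543 were near 0, at -0.09 ± 0.21 and 0.17 ± 0.50, and changed sign between the libraries.

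**Figure D3:**
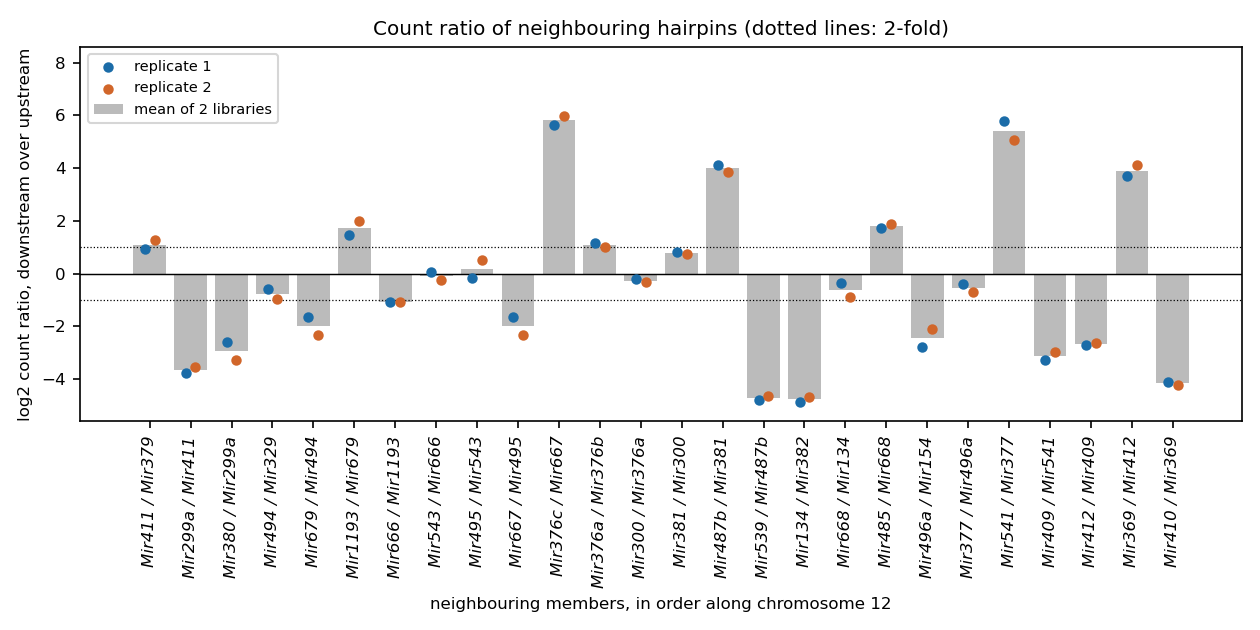
Log2 ratio of the counts of each member over its upstream neighbour, for the 26 pairs with at least 10 counts in each library, with bars for the mean and points for the libraries. Points of both libraries lie close together on bars that reach from -4.78 to 5.82, while Mir543 over Mir666 and Mir495 over Mir543 lie on both sides of 0.

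The miR-376 family contains the most alike hairpins of the block. Mir376c and Mir376b were 80.7% identical in a global alignment, against a median of 50.6% over the 666 pairs of members other than Mir299b. Their transcripts are known substrates of adenosine deamination, which can change a seed, and edited reads were not analysed here. The sequences show the seeds of Mir376a and Mir376b on both arms and that of Mir376c on the 5p arm.
miR-376b-3p: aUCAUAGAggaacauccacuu
miR-376a-3p: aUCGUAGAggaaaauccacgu
miR-376c-5p: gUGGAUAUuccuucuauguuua
miR-376b-5p: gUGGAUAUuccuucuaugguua
miR-376a-5p: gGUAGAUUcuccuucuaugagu
Mir376c exceeded Mir376b 14.5-fold in replicate 1 and 9.12-fold in replicate 2, a log2 ratio of 3.52 ± 0.48. Mir376a had 387 and 740 counts and Mir376b 172 and 371, a log2 ratio of 1.08 ± 0.12. Mir376c and Mir376b share a 20-base stretch, and reads that fitted more than 1 place are in no gene row. How many reads of either were lost that way was not tested.

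Mir300 and Mir381, whose hairpins were 73.8% identical, had more similar counts. Mir381 exceeded Mir300 by a log2 ratio of 0.79 ± 0.05, with 588 and 1003 counts against 331 and 594. Mir411 and Mir758 were 73.5% identical and share a 20-base stretch. Their counts were among the highest and the lowest of the block.

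Among the 71 mature sequences used, 7 seeds occurred in more than 1 member, 10 in a miRNA gene outside the block, and 47 in a single member and no other gene of the RefSeq table. The GGUAGAC seed of miR-379-5p also occurs in miR-1193-5p, with the sequence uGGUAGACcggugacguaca. Mir379 exceeded Mir1193 38.9-fold in replicate 1 and 38.5-fold in replicate 2. The ACACACC seed of miR-329-3p is shared with miR-362-3p from an X-linked cluster, and both are shown as an example of a seed shared outside the region.
miR-329-3p: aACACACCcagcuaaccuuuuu
miR-362-3p: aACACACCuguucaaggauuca
Mir362 had 63 and 70 counts, so Mir329 exceeded it 9.84-fold in replicate 1 and 16.2-fold in replicate 2. The AUAUAAC seed of miR-410-3p recurs in the Mir344d and Mir344e genes, which had no counts. These genes share 20-base stretches with each other or with further genes, and reads that fitted several places are in no gene row, so their 0 does not show absence. The UCACCUG seed of miR-412-3p is shared with Mir1983, which had 73 and 99 counts against 104 and 139 for Mir412. Mir1192, with the seed AACAAAC of miR-495-3p, had no counts, and Mir370, in the proximal part of the region with the seed of miR-1193-3p, had 96 and 103.

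Replicate 2 was higher than replicate 1 for 11 of 32 tested members and lower for 7, and 14 did not pass. Each gene's 2 counts were compared with a two-sided exact binomial test, adjusted by Benjamini-Hochberg over all 313 genes with at least 10 summed counts. Only counting error enters this test, which compares libraries and not conditions. Of all 313 genes, 38.3% were called, 19.8% higher and 18.5% lower. Of the tested members, 34.4% were called higher and 21.9% lower. Genes with more counts can pass this test at smaller differences, and shares called at equal depth were not compared. Among genes with at least 100 counts in both libraries, 2 of 29 members were over 1.5-fold higher and 1 was over 1.5-fold lower, against 12 and 5 of all 179. The median log2 ratio of replicate 2 over replicate 1 was 0.03 over the tested members and 0.05 over all genes tested. The members' median changed sign to -0.022 with DESeq2 size factors and to -0.018 with TMM over tested genes.

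The largest excess in replicate 2 among the members was that of Mir376b, with 115 CPM in replicate 1 and 183 in replicate 2, or 0.68 on the log2 scale (95% interval from 0.41 to 0.95, exact binomial test, adjusted p = 1.02e-06). Mir496a had 107 and 163 CPM, a log2 ratio of 0.62 (0.35 to 0.91, adjusted p = 2.4e-05). Mir376a was higher in replicate 2 by 0.50, Mir299a by 0.47, Mir329 by 0.44, Mir300 by 0.41, Mir369 by 0.39, Mir495 by 0.34 and Mir381 by 0.34. Mir411 was higher by 0.25 and Mir487b by 0.08, the latter a small difference that passed on deep counts. The call for Mir487b ended with DESeq2 size factors (adjusted p = 0.275), and that for Mir495 did too (adjusted p = 0.100).

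Mir679 was lower in replicate 2 by the most, with 88.5 CPM in replicate 1 and 58.2 in replicate 2, or -0.60 on the log2 scale (interval from -0.97 to -0.23, exact binomial test, adjusted p = 0.00422). Mir668 had -0.48, Mir541 -0.38, Mir543 -0.36, Mir485 -0.30, Mir382 -0.13 and Mir379 -0.09. The call for Mir543 ended in the column without strand (adjusted p = 0.0647). Mir411 and Mir379, next to each other in the cluster, thus differed in opposite directions, and so did Mir543 and Mir495. Within the miR-376 family, Mir376b and Mir376a were higher in replicate 2 while Mir376c stood at 0.00 (interval from -0.07 to 0.08, adjusted p = 0.960). With the hairpin GC trend removed, Mir376c was called lower, at -0.14.

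Upstream of Mirg, 9 of 20 tested members were higher in replicate 2 and 3 lower, and within Mirg 2 of 12 were higher and 4 lower. Over all 313 genes tested, 19.8% were higher and 18.5% lower. Whether the parts differ from each other or from all genes was not tested. Hairpin GC content moved with the difference: over the 32 tested members, Spearman's rank correlation of GC with the log2 ratio was -0.51, against -0.16 over all 313 genes. Median GC was 41.8% in the members higher in replicate 2, 43.4% in those lower and 46.9% in those that did not pass. A linear GC trend was fitted to the genes with at least 100 counts in both libraries, an alternative chosen after seeing the data. With that trend removed from all tested genes, 19 members passed in place of 18, 10 higher and 9 lower.

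With the spread between the libraries added to counting error, 0 of 32 members passed in edgeR's exact test with a negative binomial model (lowest adjusted p = 0.986), and 0 had an unadjusted p under 0.05. Over all 313 genes, 0.0% passed and 15 genes had an unadjusted p under 0.05. The estimate of that spread came from these libraries too, and holds the differences it is set against. A missed threshold in either test does not show that a member had equal levels.

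**Figure D4:**
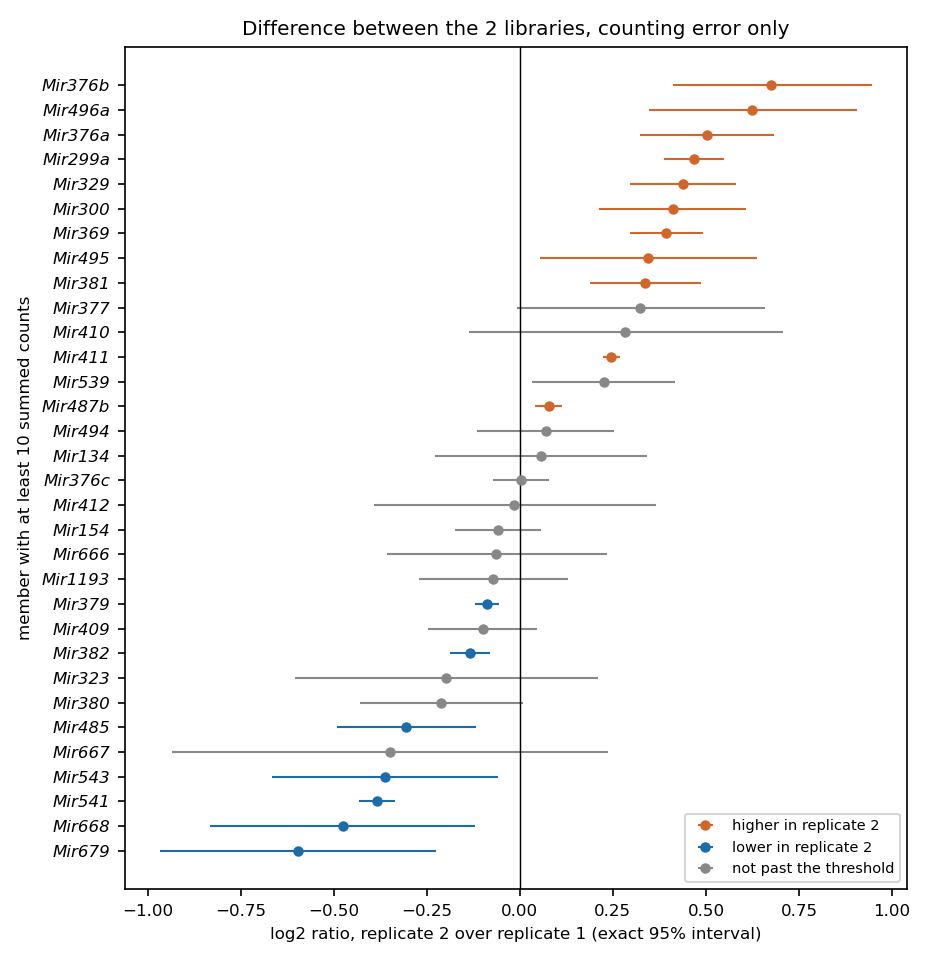
Log2 ratio of replicate 2 over replicate 1 with exact 95% intervals for the 32 tested members, sorted by ratio, with colours for the outcome of the binomial test. The ratios run from -0.60 for Mir679 to 0.68 for Mir376b, and the intervals of Mir411, Mir379, Mir487b and Mir541 are the narrowest because these have the most counts.

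The proximal part of the region, listed with 19 symbols of which 16 were found there, held 4.65 ± 0.303% of gene counts. The distal members had 1.05 times its counts in replicate 1 and 1.21 times in replicate 2. Among 13 proximal genes tested, replicate 2 was higher for 3 and lower for 2, with a median log2 ratio of -0.01. Over all 313 genes tested, 19.8% were higher and 18.5% lower. Mir127, its most abundant gene, had 35988 ± 3408 CPM, above Mir411 in both libraries.

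The tissue label was checked against marker miRNA genes. All 9 listed muscle genes had counts and together held 5.18 ± 0.472% of gene counts, from 4.84% to 5.51%. Mir206, a miRNA of skeletal muscle, made up 96.9% of this sum in replicate 1 and 96.1% in replicate 2, so the check rests on 1 gene. Of the 9, 5 have 20 bases in a row in common with a further hairpin, including Mir1a-1 and Mir133a-1 at 10.7 and 16.6 CPM. Markers of other cells held more counts and were higher in replicate 2: Mir143 and Mir145a, of smooth muscle and pericytes, held 5.89% and 7.87% of gene counts, and Mir126a, of endothelium, 7.83% and 8.75%. Because the block is known from brain, 18 neuronal miRNA genes were read beside it: they held 0.161 ± 0.00466% of counts, from 0.158% to 0.164%, and 5 were at 0. Mir128-1 made up 75.6% of this sum in replicate 1 and 76.7% in replicate 2. Of the 18, 16 have such a run in common with a further hairpin, so the sum may be too low. Among the 16 are the 5 at 0, which are Mir9-1, Mir9-2 and the 3 Mir124a genes, so that their 0 does not show absence. In a bulk sample, fewer cells of a type and less RNA per cell cannot be told apart, and the part of any cell type in the levels of the block was not tested. Reads that fitted several places made up 69.8% and 71.8% of all reads and are in no gene row.

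Strand mattered for 6 members. Mir299a and Mir299b overlap each other on opposite strands, and Mir380, Mir376a, Mir539 and Mir409 overlap Gm25750, Gm25252, Gm44322 and Gm24321 on the minus strand. On its own strand Mir299a had 1981 and 3699 counts and the opposite strand 2 and 0. The column without strand listed all 6 at 0, and the block lost 4.90% of its counts in replicate 1 and 5.73% in replicate 2. The total over all genes also fell in that column, from 1491341 to 1113672 counts (replicate 1) and from 2028332 to 1517133 (replicate 2). The 4 Gm rows had 0 counts on their own strand in both libraries.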

How the data were processed

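MicroRNA libraries of 2 samples of 1 group were analysed. The authors deposited raw counts of reads for each miRNA gene, on mm10 with GENCODE M21 per the descriptions deposited with the files. Aligner and trimming: not given in the sources used here. From the values, the 3 count columns ignore strand, follow the gene's strand and take the other strand; the second was used. Neither library sizes nor tests include the 4 summary rows. Symbols, coordinates and hairpins came from GENCODE M21 (2202 of 2202 rows matched), mature sequences from RefSeq (GRCm38.p6). CPM used gene-count totals. Ratios used TMM factors over all genes (edgeR 4.0.16, R 4.3.3), and binomial tests SciPy 1.17.1, with a threshold of 0.05 on adjusted p and a minimum of 10 summed counts. With 1 group, a quasi-likelihood test had no contrast. The binomial step was run on simulated data with counting error only, which cannot show how it behaves with spread between libraries. DESeq2 1.42.0 gave alternative size factors. Hairpins were marked as sharing sequence where a 20-base stretch occurred in another, non-overlapping miRNA gene. Intervals and the 3-count limit express counting error alone, as PCR copies are not separate molecules. The rule for naming took all 38 members, Mir127, genes sharing a seed with a member, overlapping genes and other rows of the interval. Members and lists were chosen with earlier results of these data known. Of 19 proximal symbols, Mir882 lies in the distal interval, and Mir3070-1 and Mir3070-2 matched no row name.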

Additional observations from a re-analysis of the deposited data

How the results depend on the processing

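The block's share of 5.26% was 6.66% in the column without strand, where the total over all genes is lower. With Mir411 left out of both sums it was 3.36%. It was 2.40% without 5 members, left out of the block's sum but not of the total. Their hairpins have 20 bases in a row in common with another, non-overlapping hairpin (Mir411, Mir487b, Mir376c, Mir376b and Mir758). The total also kept other genes with such a stretch, which 1087 of 2202 gene rows have. Mir299a and Mir299b, which overlap each other, were not left out. In single libraries the main share ran from 5.12% to 5.39%. The counts of 18 called members, 11 higher and 7 lower, stayed within 1.5 times under each alternative for scaling, minimum count, strand column and GC, and fell to 0, 0 and 0 in the negative binomial test, which adds the spread between the libraries. Log2 ratios near 0 changed sign: Mir376c to -0.0067 with totals, -0.048 with DESeq2 size factors, -0.044 with TMM over tested genes and -0.14 with the GC trend removed (adjusted p = 0.000894), Mir494 to -0.037 and Mir666 to 0.0056 with the GC trend removed, and Mir412 to 0.0051 without strand. The cause was not tested. TMM over tested genes and the GC trend were chosen after seeing the data. In single libraries, Mir543 over Mir666 ran from -0.24 to 0.058 and Mir495 over Mir543 from -0.18 to 0.52. No count test was possible with 1 library left out. No paired analysis was possible because the libraries form 1 group. Depth limits the 6 members with at most 2 counts, for which no difference was detectable. For Mir758 and Mir299b, sequence shared with Mir411 and Mir299a may limit the counts too, which was not tested.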

Other observations

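Many mature sequences of the block carry a common core, noticed after the sequences were seen. The 8-base pattern GGUUNNCC occurred in a mature sequence of 14 of the 38 members (36.8%) and of 5 of the 1020 other miRNA genes of the RefSeq table (0.490%). Its reverse complement, GGNNAACC, occurred in 4 members and 7 other genes, with Mir299a, Mir299b, Mir494 and Mir409 holding both. Of the 15 matching sequences 14 were 5p arms, and in 13 the match overlapped bases 2 to 8, the seed, at least in part. It started at base 2 or 3 in 9 of them. Examples are given with the match in capitals.
miR-299a-5p: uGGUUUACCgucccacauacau
miR-487b-5p: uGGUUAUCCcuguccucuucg
miR-154-5p: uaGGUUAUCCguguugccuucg
miR-409-5p: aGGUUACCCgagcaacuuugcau
miR-758-5p: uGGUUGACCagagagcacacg
Members with the pattern ranged from 0.582 to 7035 CPM (median 230) and those without it from 0 to 19662 CPM (median 134). The levels of both groups overlapped over most of their range.

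Besides the members, 7 miRNA gene rows lay in the interval. Mir882 had no counts, Mir3072 had 11 and 20, and Gm27379, between Mir539 and Mir544, had 5 and 2. The other 4 are the minus-strand rows opposite Mir380, Mir376a, Mir539 and Mir409.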
